A study of Drosophila melanogaster with 6 samples.

Results

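Genes of the Notch signalling pathway, with fringe (fng) among them, were followed in Drosophila melanogaster SL2 cells after depletion of the chromatin remodelling ATPase ISWI. The members were 10 listed genes, namely N, Dl, Ser, fng, neur, Su(H), H, gro, Psn and E(spl)m3-HLH, and all probe sets that the platform annotation assigned to exactly 1 of them were taken. Of the 10 genes, 7 had such a probe set, 9 probe sets in all among the 18952 on the array. Dl was found under its current symbol Delta, and dl, which is the separate gene dorsal, was kept apart. No probe set was assigned to N, Ser or Su(H), which were therefore not analysed here.

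SL2 is a cultured line from late embryos with properties of haemocytes, the insect blood cells. Total RNA came from 6 cultures, each hybridised to 1 single-colour array after 1 hour with 10 micrograms of double-stranded RNA (dsRNA) in medium without serum and harvest at day 7. In 3 cultures the dsRNA targeted ISWI and in the other 3 it targeted GST, a control target. The design calls the 3 replicates biological, all cultures were of the same line, the labels name no batch, and untreated cells were not analysed here.

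Notch is a receptor cut in its membrane by gamma-secretase after it binds a ligand, Delta or Serrate, on a neighbouring cell, and its freed intracellular part enters the nucleus. There it joins Su(H), which otherwise sits on target genes with the repressors Hairless and Groucho, and turns on genes of the Enhancer of split complex. In haemocytes the pathway is best known for directing precursors to the crystal cell fate. Lines of this origin have long served as hosts for transfected Notch and Delta in cell aggregation assays.

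Values are the log2 values deposited for each probe set, and a value of 4 was taken as the level above which a transcript counted as detected. A probe set was tested if it exceeded 4 on at least 3 of the 6 arrays. Levels are compared only between arrays within a probe set, since probe sets differ in their response. The Iswi probe set read 10.53, 10.54 and 10.47 on the GST arrays and 7.66, 7.74 and 7.16 on the ISWI arrays, so every treated culture had less Iswi RNA than every control, and the lowest value was that of ISWI replicate 3. Which stretch of Iswi the dsRNA covers is not stated, so leftover dsRNA may count in this probe set. All 9 haemocyte markers exceeded 4 on all arrays, with log2 values of 10.08 to 13.79 and summed values of 112.04 to 112.19 per GST array and 110.75 to 112.66 per ISWI array. By limma's adjusted p of 0.05, 3 of the 9 were higher (eater at 0.75, drpr at 0.51 and crq at 0.22, as log2 fold changes) and 3 lower (NimC1 at -0.86, Pxn at -0.29 and srp at -0.28). All 4 germline markers and the 3 muscle markers with a probe set stayed at or below 4, and 2 of 3 neuronal markers, elav and brp, exceeded it, with neuronal values of 2.22 to 7.13 and summed log2 values of 15.66 to 16.32 per GST array and 15.03 to 15.58 per ISWI array. Of these, brp was lower at -0.29 (limma adjusted p = 0.0454) and elav differed by -0.39 (limma adjusted p = 0.0945). For brp this rests on the brightest of 4 probe sets, and the rest stayed at or below 4 on all arrays. For Pxn the groups of the brighter probe set overlapped, and the dimmer one did not pass (-0.21, limma adjusted p = 0.411). The part of these haemocyte and neuronal shifts in the members' changes was not tested. As a sign of RNA quality, the eIF-4a control read 2.26 higher at its 3' end than at its 5' end on ISWI replicate 2, against 1.69 to 1.91 on the other arrays. The mean of the 18S rRNA controls was 12.99 for GST replicate 1 and between 8.31 and 9.30 for the rest.

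After ISWI dsRNA, fng, E(spl)m3-HLH and neur rose and H fell, while Psn and gro did not pass the test and Dl was not detected in either group. By gene, 4 of 6 tested members passed limma's adjusted p of 0.05, 3 higher and 1 lower. Among all 6011 tested genes, 41.1% passed, 23.4% higher and 17.6% lower. Counted as probe sets, 4 of 7 passed, beside 40.2% of all 7390 (22.1% higher and 18.1% lower). One of the 6, fng, entered the test only through its ISWI arrays and so had to differ. Of the other 5, which exceeded 4 on all arrays, 3 passed, beside 40.5% of all genes of that kind. With so few members, these shares say nothing about the pathway as a set. In cultures measured in bulk, RNA from fewer cells of a type and less RNA per cell cannot be told apart.

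**Figure D1:**
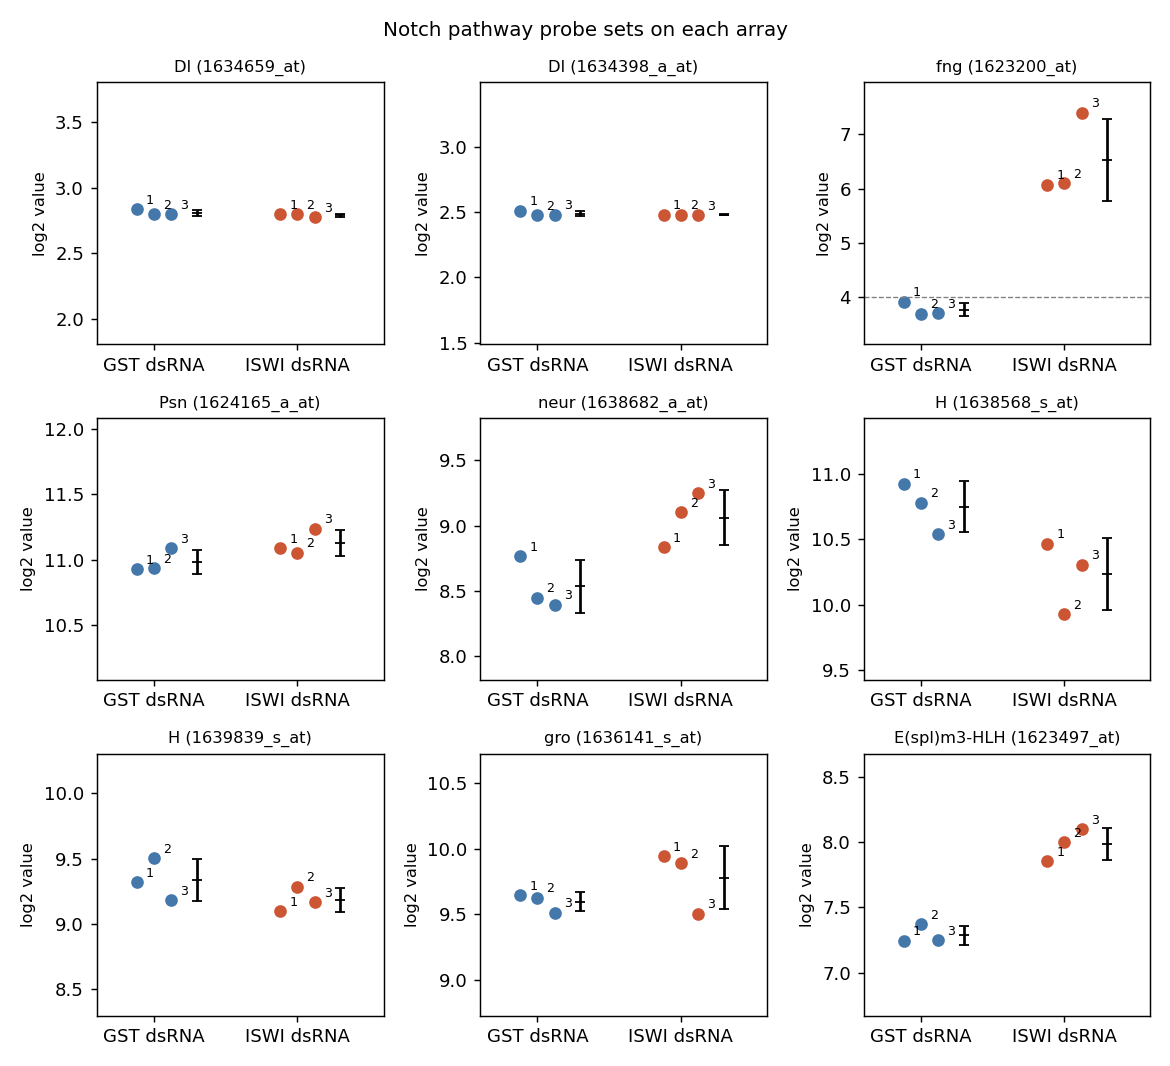
Deposited log2 value (y axis) of each member probe set on the 3 GST and 3 ISWI arrays (points, numbered by replicate), with the group mean and SD (bar) at the right of each group. Only fng crosses the level of 4 (dashed), from below it on every GST array to at least 6.07 on every ISWI array. Both Dl panels are flat below 3.

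Delta is the ligand that activates Notch on the adjoining cell. Its probe set 1634659_at read 2.84, 2.80 and 2.80 on the GST arrays and 2.80, 2.80 and 2.78 on the ISWI arrays. The other probe set, 1634398_a_at, lay between 2.47 and 2.51 on all arrays. Both stayed at the array's floor, where the processing holds undetected transcripts nearly constant, so neither was tested, and a change below that level would not be seen.

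The fng gene encodes a glycosyltransferase of the Golgi that extends O-linked fucose on the extracellular repeats of Notch, which makes the receptor more responsive to Delta and less to Serrate. Its probe set read 3.92, 3.69 and 3.71 on the GST arrays. On the ISWI arrays it read 6.07, 6.10 and 7.40. All ISWI values lay above all GST values, and ISWI replicate 3 stood 1.32 above the mean of the other 2 ISWI arrays. The group means were 3.77 ± 0.12 and 6.53 ± 0.76 (SD, n = 3), a log2 fold change of 2.75 with a 95% interval of 1.98 to 3.53 (limma adjusted p = 0.000568). Because fng met the filter only through its ISWI arrays, this p and interval are no separate support for the rise. With all probe sets tested and no filter, limma's adjusted p was 0.00242. Since no GST value was above 4, the ISWI mean is also given against that level, which it exceeded 5.76-fold. This ratio rests on a mean raised by ISWI replicate 3 and is not a lower limit for the rise.

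Other transcripts detected only after ISWI dsRNA were also most often highest on ISWI replicate 3. Of 57 probe sets that no GST array but every ISWI array showed above 4, 41 were highest on this array, 14 on replicate 2 and 2 on replicate 1. The median gap of replicate 3 over the mean of the other ISWI arrays was 0.66 among them, and 8, fng included, had a gap at least as wide as that of fng. ISWI replicate 3 also had the lowest Iswi value. It had the most probe sets above 4 as well, 7416 against 7364 and 7372 on ISWI replicates 1 and 2. Whether either goes with the higher values on this array was not tested. Without ISWI replicate 3 the log2 fold change of fng was 2.31 (limma adjusted p = 4.1e-05), and over all 6 omissions of 1 array it ran from 2.31 to 2.98. These runs kept the filter from all 6 arrays, which fng met only through its ISWI arrays.

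Psn encodes presenilin, the catalytic subunit of gamma-secretase. Its values were 10.93, 10.94 and 11.09 on the GST arrays and 11.09, 11.05 and 11.24 on the ISWI arrays, with GST replicate 3 reaching into the range of the ISWI group. The log2 difference was 0.14 (95% interval -0.02 to 0.30, limma adjusted p = 0.140), so that a rise larger than 0.30 lay outside the interval.

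The product of neur is the ubiquitin ligase Neuralized, which drives endocytosis of Delta in the cell that sends the signal. Values were 8.77, 8.45 and 8.39 with GST dsRNA and 8.83, 9.10 and 9.25 with ISWI dsRNA. The groups did not overlap, as in 54.1% of tested probe sets, but GST replicate 1 and ISWI replicate 1 were only a small step apart. The log2 fold change was 0.53 (standard error 0.13, limma adjusted p = 0.0165), a 1.44-fold rise. The call was lost without GST replicate 2 (0.48, limma adjusted p = 0.0650) and without GST replicate 3 (0.45, limma adjusted p = 0.0672). Over all probe sets, these omissions lowered the calls from 2974 to 2100 and 2150.

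H encodes Hairless, the protein that binds Su(H) and recruits the corepressors Groucho and CtBP to Notch target genes. Its brighter probe set, 1638568_s_at, read 10.92, 10.78 and 10.54 on the GST arrays and 10.47, 9.93 and 10.31 on the ISWI arrays. Every ISWI value was below every GST value, and the lowest was that of ISWI replicate 2, the array with the largest 3' minus 5' difference. The log2 fold change was -0.51 (standard error 0.15, limma adjusted p = 0.0260), which left 70.0% of the GST level. Without ISWI replicate 2 it was -0.36 (limma adjusted p = 0.0442). The call was lost without GST replicate 1, the array with the high 18S rRNA value (-0.43, limma adjusted p = 0.0951), and without GST replicate 2 (-0.50, limma adjusted p = 0.0825). These omissions also lowered the calls over all probe sets, from 2974 to 2197 and 2100. Whether the 3' minus 5' or 18S rRNA values of the arrays go with those of H was not tested.

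The dimmer H probe set, 1639839_s_at, read 9.32, 9.50 and 9.18 on the GST arrays and 9.10, 9.28 and 9.17 on the ISWI arrays. Here the groups overlapped, and the log2 difference of -0.15 (95% interval -0.37 to 0.07) did not pass (limma adjusted p = 0.233). The brighter minus the dimmer probe set was 1.41 on average in the GST group and 1.05 in the ISWI group. The change in this difference, -0.36, gave p = 0.3 in an exact two-sided permutation test over the arrays, whose smallest possible p is 0.1. The test thus does not show that the 2 probe sets responded differently, nor that they responded alike. The suffix _s_at in these names marks probe sets whose probes match more than 1 transcript, so signal from other transcripts cannot be told apart from that of H.

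The gene gro encodes Groucho, a corepressor used by Hairless and by the Enhancer of split proteins themselves. It read 9.64, 9.63 and 9.51 on the GST arrays and 9.94, 9.89 and 9.50 on the ISWI arrays. ISWI replicates 1 and 2 were above all GST arrays, and ISWI replicate 3 was below them all. The log2 difference was 0.19 (95% interval -0.08 to 0.45) and did not pass (limma adjusted p = 0.235). Without ISWI replicate 3 it was 0.32 and passed (limma adjusted p = 0.00993), so this array decides the call. Like those of H, the gro probe set has the _s_at suffix. The same suffix is found on the probe sets used for Iswi and, among genes taken up below, for aux, lqf, Su(dx), mam, ago, CtBP and Smr.

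E(spl)m3-HLH, a basic helix-loop-helix repressor and direct Notch target, read 7.24, 7.37 and 7.25 on the GST arrays. On the ISWI arrays it ran from 7.85 on replicate 1 to 8.10 on replicate 3, with replicate 2 between them. The groups were well apart, with a smaller spread than that of fng. The mean went from 7.29 ± 0.07 to 7.98 ± 0.12 (SD, n = 3), a 1.62-fold rise with a log2 95% interval of 0.49 to 0.91 (limma adjusted p = 0.000788). Leaving out any 1 array kept it between 0.64 and 0.76, with limma adjusted p between 0.00112 and 0.00613.

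**Figure D2:**
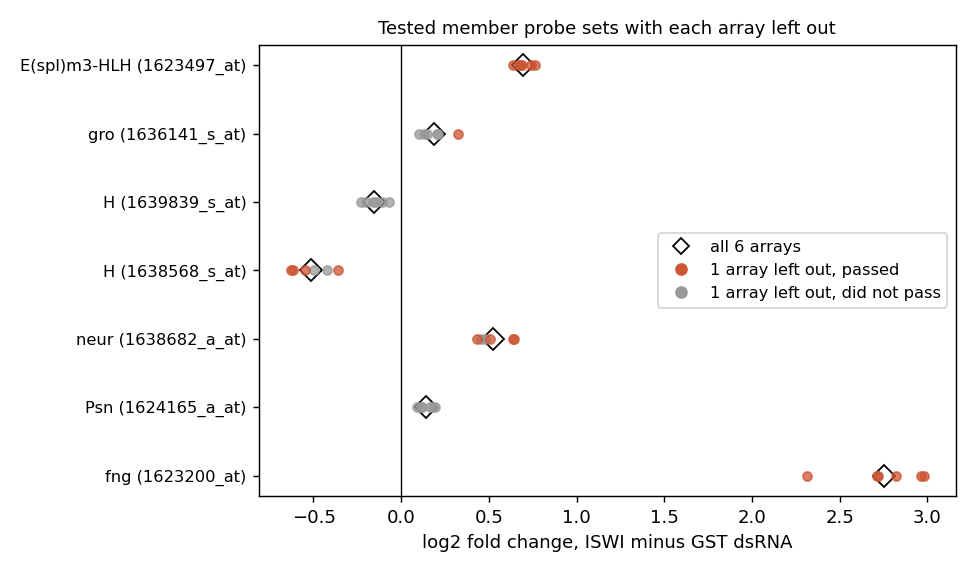
log2 fold change (x axis, ISWI minus GST) of each tested member probe set with all 6 arrays (diamond) and with each array left out (circles, coloured by whether limma's adjusted p stayed at or below 0.05). All circles of fng and E(spl)m3-HLH passed, those of neur and of the brighter H probe set passed in 4 of 6 cases, and gro passed only without ISWI replicate 3.

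The Enhancer of split complex on chromosome arm 3R holds 13 neighbouring protein-coding genes from E(spl)mdelta-HLH to gro, most of them Notch targets. Of these, 11 had a probe set. Only 3, E(spl)mbeta-HLH, E(spl)m3-HLH and gro, exceeded 4 on all arrays, and the other 8 stayed at or below it on all arrays. The neighbours of E(spl)m3-HLH on either side, E(spl)m2-BFM and E(spl)m4-BFM, had GST means of 2.69 and 2.59 and ISWI means of 2.78 and 2.58. E(spl)mbeta-HLH, a repressor of the same family, read 9.81, 9.89 and 9.99 on the GST arrays and 9.79, 10.10 and 9.82 on the ISWI arrays. These groups overlapped, with a log2 difference of 0.00, of no settled sign under other scalings, and a 95% interval of -0.22 to 0.22 (limma adjusted p = 0.993). The interval of E(spl)m3-HLH, from 0.49, lies above that of E(spl)mbeta-HLH, and the difference between the 2 genes was not itself tested.

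**Figure D3:**
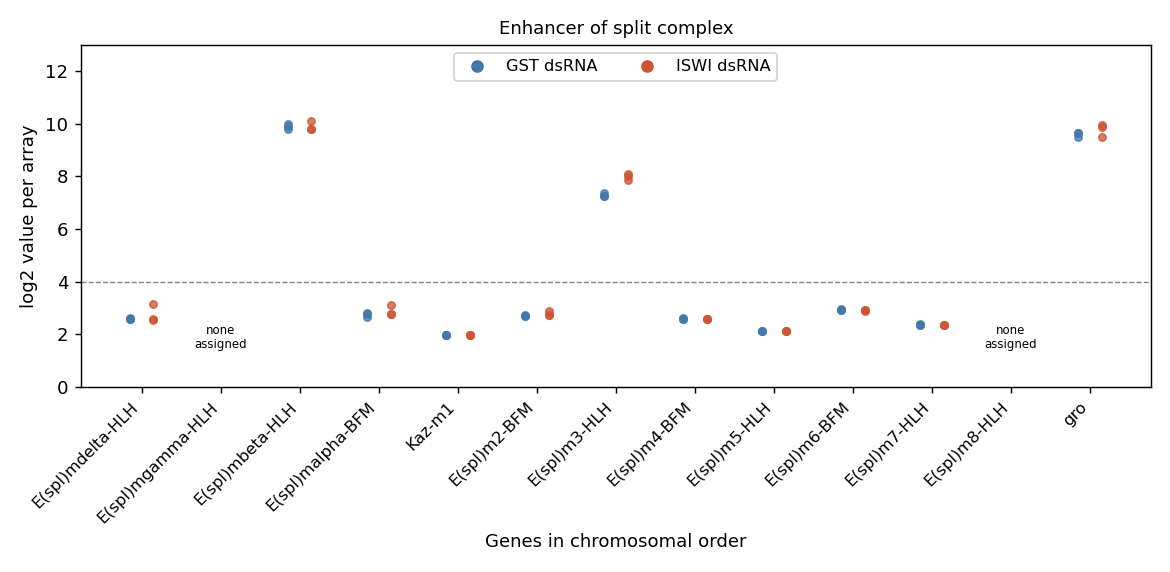
Deposited log2 values (y axis) of the 13 genes of the Enhancer of split complex in chromosomal order (x axis), with 1 point per array. E(spl)mbeta-HLH, E(spl)m3-HLH and gro lie above the level of 4 (dashed), and of these only E(spl)m3-HLH has non-overlapping groups.

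The other members lie outside the complex, fng and Psn on arm 3L and neur and H elsewhere on 3R. Within the 3 nearest protein-coding genes on each side of fng, 4 had a probe set (CG11458, CG10589, Sems and CG10588), and all 4 stayed at or below 4 on every array of both groups, so fng was the only one of these 5 genes detected. Around neur, 6 of 6 neighbours were tested and 1 passed, tgo, which encodes a transcription factor partner and lies next to it (log2 fold change 0.26, limma adjusted p = 0.0433). Around H, 3 of 6 were tested and 1 passed, the kinase gene Lrrk at -0.41 (limma adjusted p = 0.0320). Around Psn, 5 of 6 were tested and 1 passed, CG5262 at 0.33 (limma adjusted p = 0.00765). Beyond gro, Exo84 and Vps2 were tested and did not pass. These neighbours were chosen by their place in the genome, after the values had been seen. Among all tested genes 41.1% passed, and with so few neighbours these counts say nothing about the regions.

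The rest of the pathway was read from a list of 38 further genes. Of these, 33 had a probe set and 22 were tested, and 4 passed (18.2%), 3 higher and 1 lower, beside 41.1% of all tested genes. The median log2 difference of the 22 was -0.05, against 0.03 over all tested genes. The other 11 with a probe set were not tested, 8 of them in the target group, where E(spl)mbeta-HLH alone was tested.

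Like fng, rumi encodes an enzyme that glycosylates the extracellular repeats of Notch, in this case with O-linked glucose. It read 8.76, 8.85 and 8.89 on the GST arrays and 9.35, 9.47 and 9.47 on the ISWI arrays, and its groups were clearly apart. The rise was 1.51-fold, a log2 fold change of 0.60 (limma adjusted p = 0.000405). O-fut1, whose product adds the fucose that Fringe extends, differed by -0.08 (95% interval -0.26 to 0.09, limma adjusted p = 0.401) and did not pass.

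The gene aux encodes auxilin, a clathrin cofactor required in cells that send the Delta signal. It read 11.41, 11.47 and 11.39 with GST dsRNA and 11.91, 11.92 and 12.05 with ISWI dsRNA. The groups did not overlap, and the log2 fold change was 0.54 (limma adjusted p = 0.000231). Its partner in this role, the epsin gene lqf, had overlapping groups and a difference of 0.27 that did not pass (limma adjusted p = 0.0597), except without ISWI replicate 2 (0.34, limma adjusted p = 0.0316).

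Among 5 tested genes of receptor trafficking, 1 rose and 1 fell, beside 23.4% higher and 17.6% lower among all tested genes. So small a count says nothing about these genes as a group. Nedd4, a ubiquitin ligase gene whose product promotes the turnover of Notch, read 8.95, 8.92 and 8.74 on the GST arrays and 9.18, 9.31 and 9.07 on the ISWI arrays. Its groups did not overlap, with a log2 fold change of 0.31 (limma adjusted p = 0.0250), and the call was lost when GST replicate 2, GST replicate 3 or ISWI replicate 2 was left out (limma adjusted p = 0.0595, 0.0899 and 0.0614). Over all probe sets, these omissions left 2100, 2150 and 2773 calls, against 2974 with all arrays. The gene lgd (l(2)gd1), whose product keeps Notch in endosomes from signalling without ligand, read 10.20, 10.13 and 10.22 on the GST arrays and 9.82, 9.89 and 9.76 on the ISWI arrays. It fell by 0.36 on the log2 scale (limma adjusted p = 0.00255), to 78.1% of the GST level. The other 3 did not pass: the related ligase gene Su(dx) differed by -0.32, the Notch inhibitor gene numb by -0.21 and deltex (dx) by -0.15, with limma adjusted p = 0.0739, 0.137 and 0.229.

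Of the tested nuclear genes, 4 were listed as coactivators (mam, nej, pzg and ago) and 6 as corepressors (CtBP, Smr, insv, ebi, sno and HDAC1). These labels are loose, and ago and sno do not fall strictly under them. Of these genes, 0 passed limma's adjusted p of 0.05, beside 41.1% of all tested genes. At an unadjusted limma p under 0.05 there was 1, mam, the Mastermind coactivator gene, at -0.27 (limma adjusted p = 0.0887). The acetyltransferase gene nej differed by -0.48 with a wide 95% interval of -1.01 to 0.05. It passed without ISWI replicate 1 (-0.71, limma adjusted p = 0.0296). Su(dx) (-0.47), dx (-0.23) and the gamma-secretase subunit gene pen-2 (0.23) passed there too. This took the count of further genes from 4 to 8, now 4 higher and 4 lower. In that run 40.9% of all tested probe sets passed, against 40.2% with all arrays. ISWI replicate 2 held the lowest value of nej, Su(dx) and dx. Without it they differed by -0.21, -0.21 and -0.09 and did not pass (limma adjusted p = 0.304, 0.185 and 0.479). The corepressor gene Smr, at 0.20 with all arrays, passed without ISWI replicate 3 (0.32, limma adjusted p = 0.0235). For pzg, whose product has been described with the ISWI-containing NURF complex at Notch targets, the difference was -0.05 (95% interval -0.27 to 0.17, limma adjusted p = 0.711). For CtBP, the corepressor that Hairless binds beside Groucho, it was -0.06 (95% interval -0.27 to 0.14, limma adjusted p = 0.612).

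**Figure D4:**
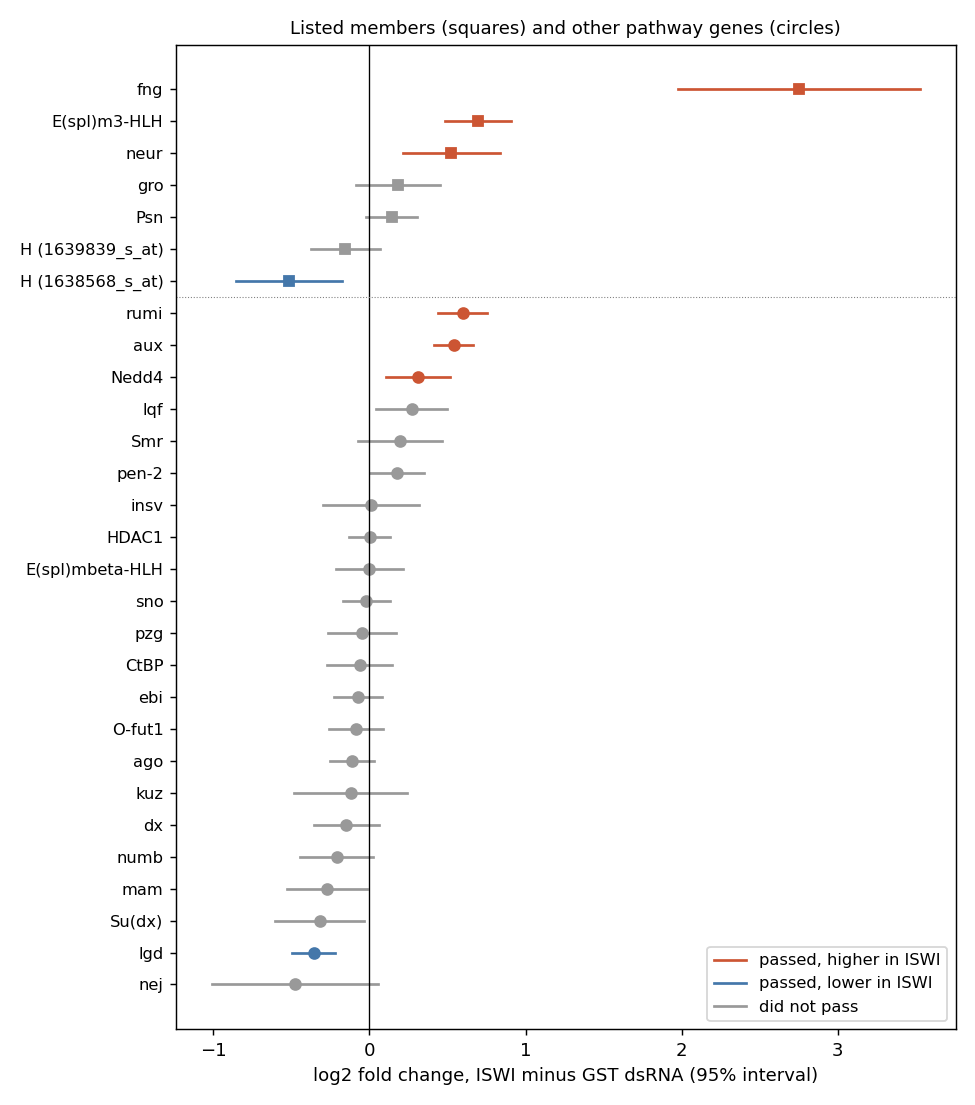
log2 fold change (x axis, ISWI minus GST) with limma's 95% interval for the 7 tested member probe sets (squares, above the dotted line) and the 22 tested genes of the further list (circles), coloured by call. The interval of fng begins at 1.98, above the end of every other interval shown.

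The crystal cell regulator lz, a gene downstream of Notch in haemocyte precursors and singled out after its values were seen, lay at the detection level. It read 4.24, 3.69 and 4.20 on the GST arrays and 4.19, 4.19 and 4.41 on the ISWI arrays, with overlapping groups and a log2 difference of 0.23 (limma adjusted p = 0.361).

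The 5 genes whose values over the 6 arrays lay nearest to those of fng, each taken minus its own GST mean, were CG10126, CG16710, CG5001, NimB3 and Obp49a. Their root mean square difference from fng ran from 0.19 for CG10126 to 0.27 for Obp49a on the log2 scale. Each was highest on ISWI replicate 3. NimB3, of the Nimrod family, to which phagocytosis receptors of haemocytes belong, went from a mean of 6.55 to 9.64, and CG16710 from 3.91, at or below 4 on all GST arrays, to 6.57. None lies on arm 3L with fng. The genes were chosen for this likeness, which the difference between the groups dominates, so it carries no test.

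**Figure D5:**
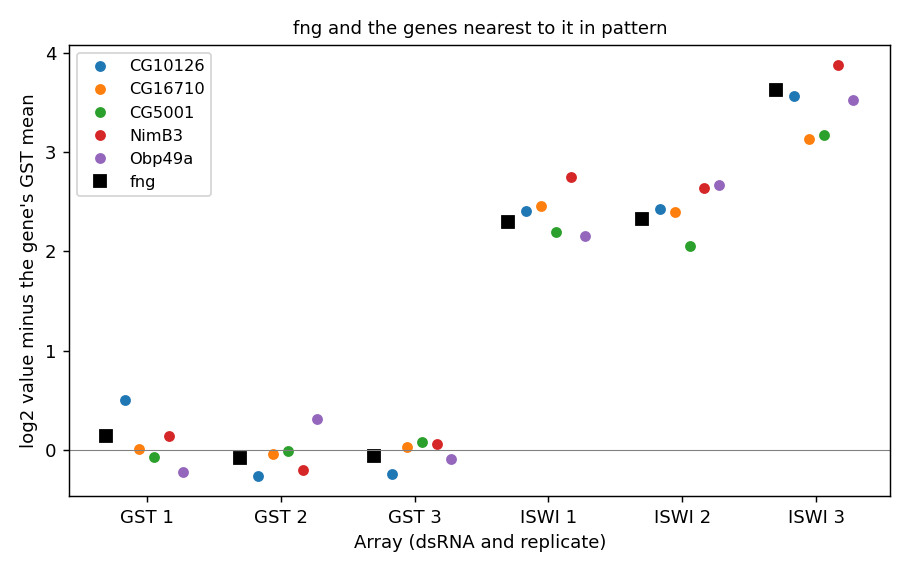
log2 value minus the gene's own GST mean (y axis) on each of the 6 arrays (x axis) for fng (black squares) and the 5 genes nearest to it (circles). On the GST arrays the genes scatter around 0, most widely CG10126 (SD 0.44), and all 6 reach their highest value on ISWI replicate 3.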

How the data were processed

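RNA of 6 SL2 cultures, grouped by the treatment in their titles, was measured on 1 array each. The table deposited by the authors gives a log2 value for each probe set, made with GCRMA, per the submitters' processing notes. GCRMA in general corrects the background, normalizes by quantiles and summarises probes. Its version and other steps are not given in the sources used here. Such values hold undetected transcripts near a constant and remove a global shift of RNA between groups.

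After 183 control probe sets were left out, 13647 of 18769 had 1 gene symbol in the platform annotation, 402 had several and 4720 had none. Only the first kind named genes, with current names and gene order from a Release 6 gene table. Probe sets above 4 on at least 3 arrays were tested (7390, for 6011 genes) by the moderated linear model of limma 3.58.1 under R 4.3.3, with the variance prior following intensity. Tests were two-sided and Benjamini-Hochberg adjusted over all of them. The level of 4 was chosen, not measured. Each gene was represented by its brightest tested probe set.

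Named were all members, Iswi, further pathway genes that passed (up to 10 by adjusted p) and the 5 genes nearest to fng. Genes named beside these serve to describe a group or are said to be chosen later. The members and lists were chosen with earlier results of these data known. Alternatives were other filters, normalizations and variance models, a replicate block and leaving out each array. The scripts were tested on simulated data. The number of arrays limits the precision.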

Additional observations from a re-analysis of the deposited data

How the results depend on the processing

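The rises of fng, E(spl)m3-HLH, rumi and aux and the falls of lgd and Iswi passed under every alternative run, fng with log2 fold changes of 2.31 to 2.98. Runs that kept the level of 4 as filter admitted fng only through its ISWI arrays. No tested member probe set, nor the H probe set difference, changed sign. Of 16 further pathway genes run under the same alternatives, 14 kept theirs. E(spl)mbeta-HLH, at 0.00, became -0.042 after quantile normalization and -0.029 after centring, and ran from -0.097 to 0.057 without single arrays. CtBP ran from -0.12 to 0.0012 without single arrays. Without the filter on dim probe sets, 18769 were tested and 2236 (11.9%) passed, and 2 members passed, 2 higher and 0 lower: neur (adjusted p = 0.0502) and H (adjusted p = 0.0778) did not, nor did Nedd4 (adjusted p = 0.0675). Leaving out 1 array gave 2 to 5 members called, 2 to 4 higher and 0 to 1 lower. It gave 3 to 8 further pathway genes, 2 to 4 higher and 1 to 4 lower. Over all probe sets it gave 2100 to 2197 calls without a GST array and 2742 to 3023 without an ISWI array. The H probe set difference ran from -0.52 to -0.16 over these omissions. Replicate numbers gave no clear sign of pairing: deviations of same-numbered arrays from their group means correlated at -0.18, 0.12 and 0.06. These few correlations were not tested and do not settle whether the arrays were handled in pairs. With the replicate block, 2808 probe sets passed against 2974, 4 members passed, and 2 further pathway genes were lower, with nej added at -0.48 (limma adjusted p = 0.0493). Centring the arrays or normalizing again by quantiles moved the median log2 fold change of all tested probe sets from 0.01 to -0.02 and left the 4 member calls. The number of arrays limits what small differences can be told apart, and a transcript at the floor, such as Dl, gives no fold change.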
